A study of Mus musculus with 4 samples.

Results

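Of the 56605 distinct non-control probes on a mouse Agilent expression array, 9055 (16.0%) are named in the files by an Ensembl transcript accession, which begins with ENSMUST. All of these were taken, whatever their signal. They carry 8761 transcript IDs, of which 8480 have 1 probe and 281 have between 2 and 4. Single-colour arrays were run on S-180 (sarcoma 180) cells, which derive from a mouse tumour and grew in medium with 10% serum. Both controls were left untreated, and both treated samples received 20 µM fluoxetine, an antidepressant that blocks serotonin reuptake, for 12 h. The labels call the 2 samples of each group biological replicates and say nothing of a shared culture day, so p-values measure only the spread between these samples. The files pair no Ensembl transcript ID with a gene, and whether another probe of the array covers the same locus was not analysed here.

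Ensembl builds transcript models from cDNA, EST, protein and RNA sequencing evidence and merges them with manual annotation. Many of its models are alternative isoforms, retained introns, long non-coding RNAs, pseudogenes or immune receptor segments, and it holds more isoforms per gene than the curated RefSeq mRNA set, whose accessions begin with NM_. Numbers in Ensembl IDs are handed out as models are added, and the version after the point goes up when a model is revised. The labelling kit named in the labels copies RNA from its poly(A) tail, here from 10 ng per sample. The 30479 probes named by an NM_ accession served as the contrast.

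The 75th percentile of the processed signal was 675 and 631 in the controls and 554 and 643 with fluoxetine, and the median was 36.8 and 35.3 against 25.6 and 30.2, so both fluoxetine medians lay below both controls. The scanner software marked between 51.7% and 53.5% of the spots of an array as well above background and 0 as saturated. Both controls lay side by side on 1 slide, as did both fluoxetine arrays, so place on the slide and treatment cannot be told apart. Of 12 mesenchymal marker genes, 7 were well above background on all arrays (Vim, Fn1, S100a4, Acta2, Twist1, Pdgfra and Col1a1). Epithelial markers were also present, 4 of 5 on all arrays with Cdh1 on none. The summed log2 level of the mesenchymal list was 5.92 to 6.10 on the 4 arrays. That of the epithelial list, led by Krt8 and Krt18, was 7.21 and 7.28 in the controls and 6.99 and 6.97 with fluoxetine. The leukocyte list (4 of 10 on all arrays, and the pan-leukocyte gene Ptprc on none) read 4.09 and 4.20 in the controls and 5.30 and 5.11 with fluoxetine. Its brightest gene, the macrophage glycoprotein gene Cd68, read 3.70 and 3.85 against 5.23 and 5.03, and Itgam, an integrin gene of myeloid cells, 1.71 and 1.67 against -0.33 and -0.27. The erythroid list (1 of 3 with a probe, Hba-a1) read -0.91 and -0.90 against 1.17 and 1.07, and the endothelial list (1 of 4, Pecam1) -2.62 and -2.40 against -2.54 and -2.24. The part of these marker differences in the results that follow was not tested.

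Fewer ENSMUST probes than NM_ probes gave signal. Of the 9055, 3935 (43.5%) and 4113 (45.4%) were well above background in the controls and 3824 (42.2%) and 3950 (43.6%) with fluoxetine, against 61.3% to 62.7% of NM_ probes. The count in fluoxetine 2 lay between those of the controls, so the groups overlapped. On all 4 arrays 3411 ENSMUST probes (37.7%) were well above background and on none 4338 (47.9%). A further 692 were so on 1 array, 356 on 2 and 258 on 3. For NM_ probes the shares on all and on none were 58.2% and 33.0%.

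The ENSMUST probes were also dim. Their median brightness, the mean log2 signal over the arrays relative to the 75th percentile, was -5.48, against -2.63 for NM_ probes, and 11.8% of them against 33.3% lay above that percentile. Brightness here describes a probe's signal, which also depends on its sequence, and is no measure of how much transcript a cell holds. Weighted to the same brightness in bins of 2 log2 units, 37.8% of NM_ probes were well above background on all arrays. The mark is itself set from the signal, so this share follows from the weighting and compares nothing further between the classes.

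Under fluoxetine the ENSMUST probes with measurable signal lay lower than the NM_ probes. Among the 3411 well above background on all arrays the median level was -1.48 in control 1, -1.49 in control 2, -1.81 in fluoxetine 1 and -1.77 in fluoxetine 2. Both controls were above both treated arrays, by more than the members' medians differed within either group. The 17735 NM_ probes read 0.56, 0.57, 0.61 and 0.61 in the same order. The median log2 change (fluoxetine minus control) was -0.28 for ENSMUST probes, with quartiles of -0.66 and 0.07, and 0.03 for NM_ probes, with quartiles of -0.23 and 0.30. Of the ENSMUST probes 70.9% had a change below 0, against 46.6% of NM_ probes. Fewer copies of a transcript per cell and fewer cells that carry it cannot be told apart in RNA from a whole culture.

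**Figure D1:**
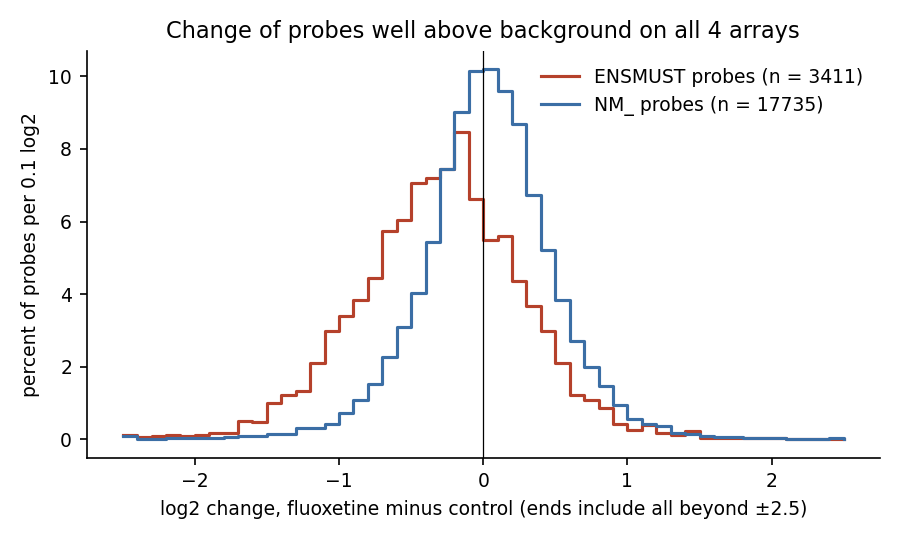
Distribution of the log2 change (x axis, fluoxetine minus control) as the percent of probes in each step of 0.1 log2 (y axis), for the 3411 ENSMUST and 17735 NM_ probes well above background on all 4 arrays. The ENSMUST curve lies to the left, with a median of -0.28 against 0.03; scaling by array medians moves both to the right by 0.24, to -0.03 and 0.27.

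The medians and the shares below 0 depend on how the arrays are scaled, and the gap between the classes depends on the background correction. The median of an array lies near the edge of detection, as 51.7% to 53.5% of its spots were well above background. Setting each array to its own median, in place of its 75th percentile, adds 0.24 to every change. It moves the median of all tested probes from -0.04 to 0.21, that of the 3411 ENSMUST probes to -0.03 and that of the NM_ probes to 0.27. The gap between these ENSMUST and NM_ medians is -0.31 under both scalings. Over all tested probes it was -0.33, and it was -0.28 with quantile normalization and -0.20 with normexp background correction. Changes below are therefore read against the NM_ probes measured on the same arrays.

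Every pairing of a fluoxetine array with a control array showed the gap. The median difference of the ENSMUST probes was -0.30 for fluoxetine 1 minus control 1, -0.26 for fluoxetine 1 minus control 2, -0.29 for fluoxetine 2 minus control 1 and -0.24 for fluoxetine 2 minus control 2. The NM_ probes gave 0.07, 0.03, 0.04 and 0.01. Within a group the ENSMUST median differed by -0.0058 between the controls and by -0.013 between the fluoxetine arrays. The ENSMUST minus NM_ gap ranged from -0.36 to -0.26 over the 4 pairings, which share arrays, and was -0.04 between the controls and 0.01 between the fluoxetine arrays. With 2 arrays against 2, an exact permutation test over arrays cannot go below p = 0.333, so no p is given for it.

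**Figure D2:**
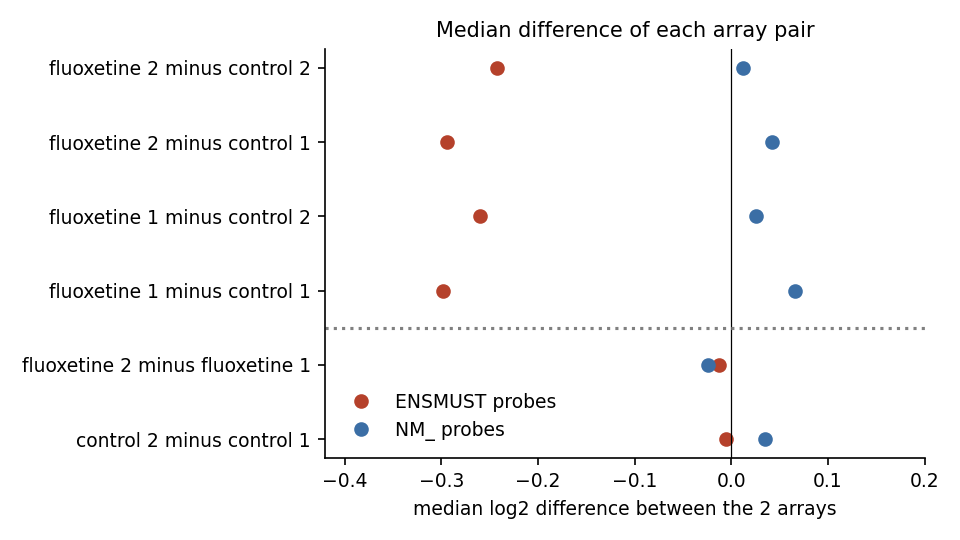
Median log2 difference between 2 arrays (x axis) for each pairing (y axis), over the 3411 ENSMUST and 17735 NM_ probes well above background on all arrays; pairings within a group lie below the dotted line. ENSMUST medians lie between -0.30 and -0.24 in the 4 pairings across groups and near 0 within groups; median scaling moves both classes in the pairings across groups, and the gap between them stays.

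Probes at background behaved differently. Of the ENSMUST probes 5 lost a value on at least 1 array, to spots marked non-uniform or as population outliers. Over the 9050 with a value the median change was -0.22, with 74.8% below 0, but the arrays of a group also lay apart. The difference was -0.10 for fluoxetine 1 minus control 2, beside -0.08 between the controls and -0.10 between the fluoxetine arrays. It was larger in the other pairings across groups: -0.23 for fluoxetine 1 minus control 1, -0.36 for fluoxetine 2 minus control 1 and -0.22 for fluoxetine 2 minus control 2. The 4334 ENSMUST probes with a value and not well above background on any array had a median change of -0.21, and the 10038 such NM_ probes -0.20. At background the classes thus read nearly alike, and both carried a negative change that median scaling turns to the other side of 0.

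The gap ran through the brightness range above background. Between -4 and -2 on the brightness scale, the lowest bin in which nearly all probes were above background, the median change was -0.37 for 1419 ENSMUST probes and -0.02 for 3409 NM_ probes. With normexp the probes of this bin detected on all arrays read -0.15 and 0.03. With the processed signal, the median change was -0.27 against 0.06 between -2 and 0, -0.20 against 0.05 between 0 and 2, -0.30 against 0.06 between 2 and 4, and -0.26 against 0.02 between 4 and 6. In the brightest bin, from 6 to 8, it was -0.12 for 144 ENSMUST and -0.07 for 307 NM_ probes, so the classes lay closest there. Above the 75th percentile, where background correction weighs least, the medians of the probes detected throughout were -0.21 and 0.04, the same with normexp, and 0.04 and 0.28 with median scaling, which turns the ENSMUST sign.

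**Figure D3:**
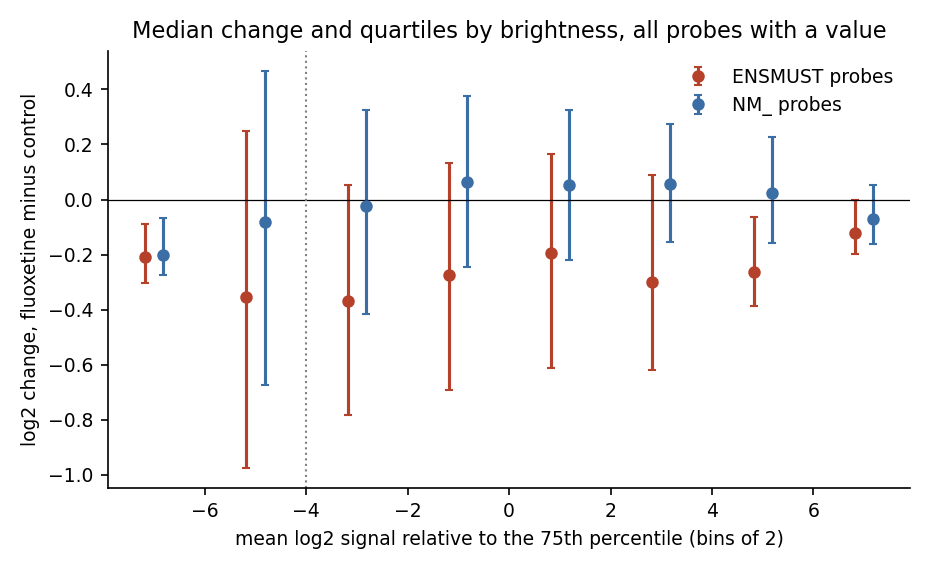
Median log2 change with quartiles (y axis) by brightness in bins of 2 log2 units (x axis, mean log2 signal over the 4 arrays relative to the 75th percentile) for all ENSMUST and NM_ probes with a value. Left of the dotted line under 10% of the probes were well above background on all arrays. To its right the ENSMUST medians lie from -0.37 to -0.12 and below those of NM_ probes in each bin. Median scaling lifts every point by 0.24, which turns the ENSMUST medians of the bins from -8 to -6, from 0 to 2 and from 6 to 8 above 0.

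Among probes called in limma, ENSMUST probes were mostly lower with fluoxetine. Of all 28270 tested probes 26.5% were called, 12.1% higher and 14.4% lower. Of the 3903 tested ENSMUST probes (43.1% of the 9055) 1299 (33.3%) were called, 250 (6.41%) higher and 1049 (26.9%) lower, and 2604 were not called. NM_ probes went the other way, with 2792 of 18725 (14.9%) higher and 1756 (9.38%) lower. Weighted to the brightness of the ENSMUST probes, 13.0% of NM_ probes were called higher and 10.4% lower. Of the ENSMUST calls 80.8% were lower, and 54.8% with median scaling. That scaling called 1312 of the 3903 ENSMUST probes, beside 37.3% of all tested probes. A probe can pass the filter through the group in which it is bright. Over the 3411 above background on all arrays the split was similar, with 217 (6.36%) called higher and 896 (26.3%) lower. Of the 17735 such NM_ probes 15.1% were called higher and 8.99% lower.

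Large changes leaned the same way. Among all tested probes, at least 2-fold and called were 54 ENSMUST probes (1.38%) higher and 405 (10.4%) lower, beside 1.91% and 4.78% of the 28270. Without the probes that passed the filter through 1 group, they were 34 (0.997%) and 288 (8.44%) of the 3411 above background throughout, beside 1.58% and 3.45% of all such probes. ENSMUST probes made up 13.8% of the tested probes, 10.0% of those at least 2-fold higher and 30.0% of those at least 2-fold lower. On the 3411 above background throughout, both fluoxetine values lay below both controls for 1935 (56.7%) and above for 677 (19.8%). Over all 25833 such probes of the array the shares were 39.0% and 34.6%. The median standard error was 0.13 for tested ENSMUST probes and 0.10 for tested NM_ probes, which are brighter. At equal brightness neither class was noisier throughout. The median SD between the controls was 0.14 in both classes from -4 to -2 on the brightness scale. It was 0.30 for ENSMUST against 0.37 for NM_ probes from -6 to -4, and 0.11 against 0.06 from 2 to 4.

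The counts of calls changed more than the medians when 1 array was left out, and both rest on the same 4 arrays. Limma called 0 ENSMUST probes without control 1, without fluoxetine 1 or without fluoxetine 2, and 774 without control 2. At an unadjusted p under 0.05 there were 1676 (42.9%), 1538 (39.4%), 1636 (41.9%) and 1993 (51.1%) in these fits, beside 33.8%, 30.6%, 33.1% and 41.3% of all tested probes. The median change of the tested ENSMUST probes was -0.30, and between -0.32 and -0.27 with 1 array left out. These fits share arrays, so medians that lie near each other add no replicates. With dim probes included limma called 0, with 2177 ENSMUST probes (24.1%) and 21.2% of all probes at an unadjusted p under 0.05.

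The lowest-numbered transcript IDs stood apart from the others. The 159 probes above background throughout with a number up to 50000 had a median change of 0.06, with 45.3% below 0, much like NM_ probes. Their medians in the 4 pairings across groups were 0.09, 0.05, 0.05 and 0.05. Numbers from 50000 to 100000 gave -0.15 (252 probes) and those from 100000 to 125000 gave -0.23 (660 probes). From 125000 to 150000 the median was -0.40 (627 probes, 75.1% below 0), with pairings of -0.39, -0.39, -0.40 and -0.40. The 3 ranges above it gave -0.35, -0.32 and -0.34 and overlapped in the medians of their pairings. Of the tested probes in the lowest range 10.4% were called lower and 15.6% higher, beside 14.4% and 12.1% of all tested probes. From 125000 to 150000 the shares were 35.0% lower and 4.94% higher.

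**Figure D4:**
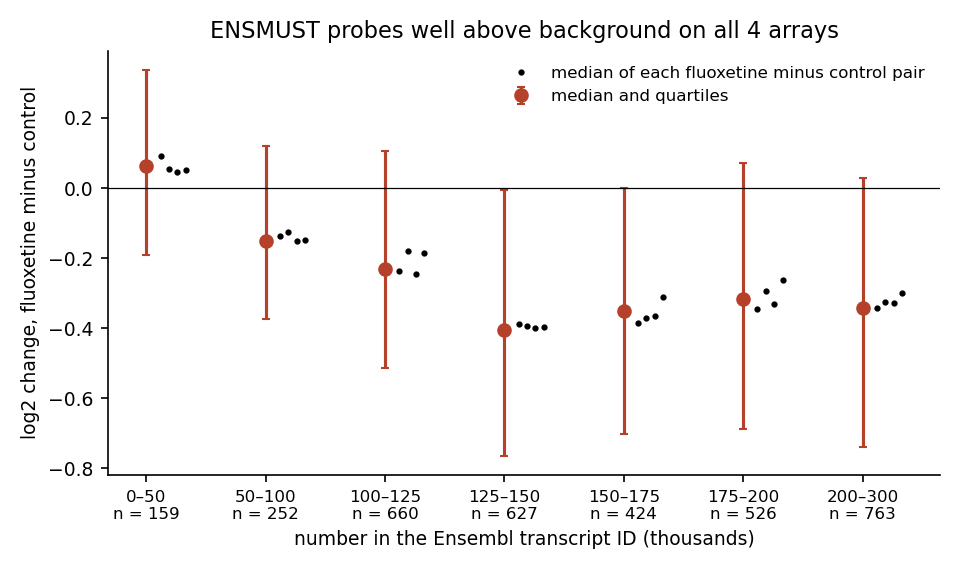
Median log2 change with quartiles (y axis; small points are the medians of the 4 fluoxetine minus control pairings) of ENSMUST probes well above background on all arrays, by the number in the transcript ID (x axis). The median is 0.06 up to 50000 and between -0.40 and -0.32 above 125000; median scaling lifts all points by 0.24 and turns the ranges from 50000 to 125000 above 0.

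The order was seen again at middling and low brightness. Between -2 and 2 on the brightness scale the lowest range had a median of 0.13 (82 probes) and that from 125000 to 150000 had -0.43 (230 probes). Below -2 the medians were -0.02 (53 probes) and -0.41 (370 probes). At 2 or more they were -0.16 (24 probes) and -0.22 (27 probes), so the ranges lay close there. These are descriptions over probes, and the difference between ranges was not tested.

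Version and probe name gave related splits. Version 1 models (65.2% of the probes) had a median of -0.33 over 2285 probes above background throughout, and versions 9 and up had 0.02 over 142. By the Agilent series in the probe name, the median was -0.04 in series 51, -0.18 in 52, -0.33 in 55, -0.31 in 65 and -0.16 in 66. The NM_ probes of the same series read 0.07, 0.06, -0.0032, -0.01 and 0.06. In each series the ENSMUST median was the lower one.

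Probes printed many times average over more spots, and here they were also bright. On each array 135 ENSMUST probes are printed at 10 spots, of which 133 were above background throughout, and their median brightness was 6.23. Spots of 1 probe on 1 array had a median SD of 0.08, and the SD between the 2 arrays of a group was 0.05 at the median in both groups. The median change was -0.20 with quartiles of -0.31 and -0.10, and 122 of 133 (91.7%) were below 0. Both fluoxetine values lay below both controls for 105 of them (78.9%) and above for 9 (6.77%). NM_ probes printed 10 times also leaned lower, with a median of -0.13 over 112 probes, 77.7% below 0, and 63.4% and 15.2% without overlap. Median scaling turned both directions, with medians of 0.04 for the ENSMUST and 0.11 for the NM_ probes and 36.1% and 24.1% below 0. With the reported scaling 8 of the 133 ENSMUST probes (6.02%) were called lower and 1 (0.752%) higher. Of the 115 tested NM_ probes printed 10 times, 7 were called lower and 8 higher. Over all tested probes the shares were 14.4% lower and 12.1% higher.

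Probes of 1 transcript mostly shared their sign. Of 79 ENSMUST transcripts with at least 2 probes above background throughout, 50 had all probes below 0, 11 had all above 0 and 18 (22.8%) were mixed, against 40.1% mixed among 3732 NM_ transcripts. These signs depend on the scaling. Of the probes above background throughout, 70.9% of ENSMUST and 46.6% of NM_ probes were below 0. Such a lean to 1 side lowers the mixed share by itself, so the mixed shares do not compare the classes. Across the 79 ENSMUST transcripts the changes of the first 2 probes correlated at Pearson's r = 0.57, against 0.38 for NM_ transcripts, as a description over probes on the same arrays. The median range within a transcript was 0.36, against 0.33 for NM_ transcripts. The widest was 2.40, in a transcript whose brighter probe read 1.57 and 1.65 in the controls and 3.20 and 3.28 with fluoxetine (1.63 ± 0.08, limma adjusted p = 0.0142). Its dimmer probe read -4.07 and -3.26 against -4.35 and -4.51 (-0.77 ± 0.31, limma adjusted p = 0.146), so only the brighter probe was called.

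Some ENSMUST probes were well above background in 1 group alone. Well above background on both controls and on neither fluoxetine array were 169 (1.87% of 9055), beside 0.545% of NM_ probes and 1.11% of all probes. The reverse held for 66 (0.729%), beside 0.666% and 0.684%. These probes entered the test through the group in which they are bright, so calls among them are not counted as support. They have a bound only, and it reached 2-fold for 92 of the 169 and 16 of the 66. The largest bounds among the lower probes were at least 7.07-fold, 6.27-fold and 4.51-fold. The 7.07-fold bound was not called (limma adjusted p = 0.0844), and its controls lay far apart at -0.37 and -4.29. Leaving out control 1 gave 1.82-fold and leaving out control 2 gave 27.5-fold. Among the higher probes the largest were at least 5.41-fold, 5.07-fold and 5.02-fold. Leaving out fluoxetine 2 lowered the 5.41-fold bound to 3.43-fold, and leaving out fluoxetine 1 gave 8.53-fold.

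The 10 largest rises among called ENSMUST probes above background throughout ran from 1.40 to 2.08 and the 10 largest falls from 2.17 to 3.51 on the log2 scale, out of 217 and 896. ENSMUST00000102582.7 had a processed signal of 590 and 582 in the controls and of 1993 and 2582 with fluoxetine. It rose by 2.08 ± 0.10, or 4.23-fold (limma adjusted p = 0.0142, n = 2 per group). ENSMUST00000123019.7 rose from 245 and 190 to 717 and 819 (1.96 ± 0.12, limma adjusted p = 0.0142, n = 2 per group). In both, the treated arrays lay close together and clear of the controls.

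ENSMUST00000182410.2 fell from 295 and 243 to 38.3 and 42.6 (-2.60 ± 0.10, limma adjusted p = 0.0142, n = 2 per group), with little spread in either group. ENSMUST00000141713.2 had a signal of 2179 and 760 in the controls and of 75.6 and 141 with fluoxetine. It fell by 3.51 ± 0.58 on the log2 scale (limma adjusted p = 0.0293, n = 2 per group), and its controls lay further apart than its treated arrays. Leaving out control 1 gave a change of -2.80, and leaving out control 2 gave -4.22. All 4 of these calls were lost without control 1, without fluoxetine 1 or without fluoxetine 2. Their direction could not turn in these fits, as the probes were picked for groups that do not overlap. The genes of these transcripts are not given here.

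**Figure D5:**
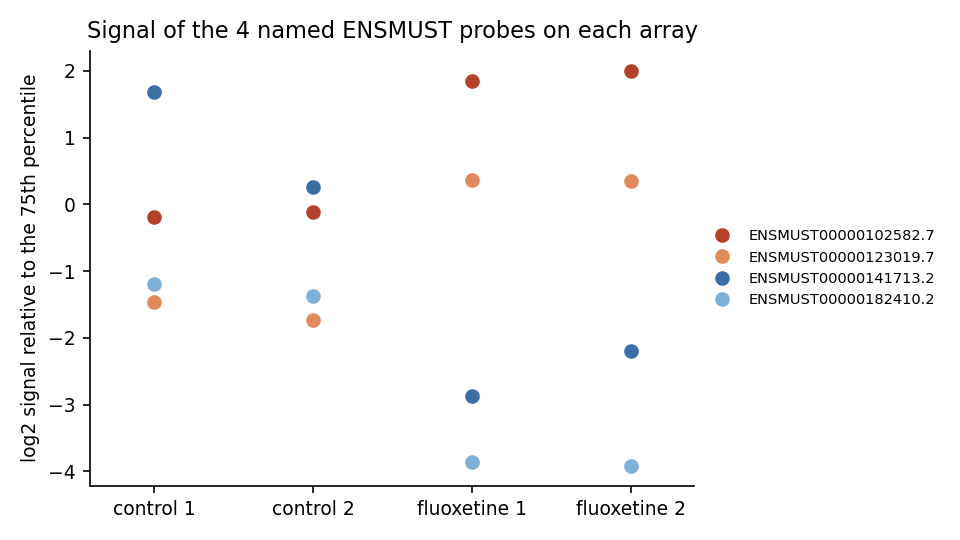
Log2 signal relative to the 75th percentile of the array (y axis) of the 4 named ENSMUST probes on each of the 4 arrays (x axis). The fluoxetine points of ENSMUST00000102582.7 and ENSMUST00000123019.7 lie above their controls and those of ENSMUST00000182410.2 and ENSMUST00000141713.2 below, with the widest control spread in ENSMUST00000141713.2 (1.69 and 0.27).

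The size and sign of the change of the brightest members depended on the scaling. The 5 brightest ENSMUST probes, at 7.46 to 7.95 on the brightness scale and 4 of them printed 10 times, had changes between -0.10 and 0.08, and 0 were called (limma adjusted p from 0.461 to 0.541). With median scaling their changes were 0.15 to 0.32, all above 0, and again 0 were called (limma adjusted p from 0.0573 to 0.297).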

How the data were processed

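Labelled RNA of 2 control and 2 fluoxetine cultures was hybridised to 4 one-colour arrays, and the deposited spot intensity on a linear scale came from the authors' run of Feature Extraction 12.1.0.3, as per the file headers, which give mm9 as the build of the array design. The deposited processed signal is background-corrected, with no scaling across arrays, per the file headers. The deposited marks for spots well above background, saturated or non-uniform were set by that software, per the file headers. Later normalization steps are not given in the sources used here.

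Control spots and spots marked non-uniform (2 to 26 per array) or as population outliers (195 to 215 per array) were left out. The log2 intensity of the remaining replicate spots was averaged for each probe. The deposited processed signal became a log2 value relative to the 75th percentile of its array. All 28270 probes that were well above background on both arrays in 1 group or more were fitted in limma 3.58.1 under R 4.3.3 (lmFit, eBayes, group as the only term) with Benjamini-Hochberg adjustment, and a probe was called at an adjusted p under 0.05. A value after ± is limma's standard error of that change. Summaries used Python 3.11.15 and pandas 2.3.3, and the fitting script was tested on simulated data. Where a group read as not well above background on both arrays, a fold is a lower bound. It sets the mean of the bright group against the dim group's mean, where each dim array counts with the probe's signal or the array's lowest signal marked well above background, whichever is higher.

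The alternatives were background correction with normexp, quantile and median scaling, no filter and a stricter filter on dim probes, a replicate block, an intensity trend, non-uniform spots kept, other detection minimums, narrower brightness bins and leaving out each array. Population outliers stayed left out where non-uniform spots were kept. Normexp was planned on the mean signal, but the median signal was used, as that is the column the files hold. Leaving out 1 array kept the same tested probes and took the spread of the remaining array from the other group.

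The members, lists and tests were chosen with earlier results of these data known. The groupings by ID number, version and probe series and the difference from NM_ probes were added after values had been seen. The naming rule took the extreme rises and falls among called probes well above background on all arrays with non-overlapping groups, the 3 largest bounds in each direction, the 5 brightest members and the transcripts whose probes differed most. Transcript IDs are printed for 2 rises and 2 falls only. The RefSeq gene table (assembly GRCm38.p6) holds 0 ENSMUST entries, so it could match none of the 8761 transcript IDs. Biotypes and gene names were therefore not analysed here.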

Additional observations from a re-analysis of the deposited data

How the results depend on the processing

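The design has 2 arrays per group on 1 slide. Background correction and scaling moved the ENSMUST median, and leaving out an array, the replicate block or dropping the filter moved the counts of calls. The median of the tested ENSMUST probes and its difference from NM_ probes kept their direction in all alternatives run. So did the 4 named changes, but these were picked for groups that do not overlap, so leaving out an array could not turn them. The block and the trend leave every change as it was, so a kept direction in those fits shows nothing further. The median of the tested ENSMUST probes (-0.30 as reported) was -0.16 with normexp, -0.21 with quantile normalization, -0.057 with median scaling, -0.22 without a filter and -0.28 with the stricter filter. It lay between -0.32 and -0.27 when 1 array was left out. The ENSMUST minus NM_ difference of tested medians (-0.33), added after the data were seen, was -0.20, -0.28, -0.33, -0.14 and -0.31 in the same settings and -0.38 to -0.29 with 1 array left out. Median scaling called 593 ENSMUST probes higher and 719 lower (1312 of 3903), and 7399 of 18725 NM_ probes. It called 37.3% of all tested probes and 34.9% of NM_ probes at equal brightness. With that scaling the ENSMUST share called was thus no longer the higher one. Without a filter limma called 0 probes, 0 ENSMUST (0 higher, 0 lower) and 0 NM_, which are 0% of all probes and 0% of NM_ probes at equal brightness (11981 of all probes at an unadjusted p under 0.05). Fitted with the replicate number as a block, limma also called 0 of all probes, 0 ENSMUST (0 higher, 0 lower) and 0 NM_, so both shares were 0%, with 10057 probes and 1807 ENSMUST probes at an unadjusted p under 0.05. Same-numbered samples deviated from their group means with r = -0.11, which gives no sign that the numbers pair the samples. A crossed block, added after the data were seen, called 728 of 3903 ENSMUST probes (105 higher, 623 lower) and 1782 of 18725 NM_ probes. Over all 28270 tested probes it called 3466. With 1 array left out the ranges were 0 to 774 ENSMUST calls, 0 to 170 higher, 0 to 604 lower, 0 to 1890 NM_ calls, 0% to 13.7% of all tested probes and 0% to 12.7% of NM_ probes at equal brightness. The upper ends came without control 2. Of the named probes, all 4 lost their call without a filter and under the block (limma adjusted p from 0.0565 to 0.107) and kept direction and call with the other scalings, normexp, the trend and the stricter filter. Signal over background limits the dim probes: 47.9% of the ENSMUST probes were at background on every array.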

Other observations

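In the other probe classes without an NM_ name, too, most of the calls were lower with fluoxetine. Probes named by AK cDNA clone accessions (1377 tested) had a median log2 change of -0.37, with 38.2% called and 85.9% of the calls lower with fluoxetine. Probes with all other names (949 tested) had a median of -0.25, with 30.0% called and 81.4% of the calls lower, near the ENSMUST values. Probes named by a genomic interval (1839 tested) had a median of -0.11, NR_ non-coding RNA probes (916 tested) -0.09, XR_ probes (402 tested) -0.06 and XM_ probes (159 tested) -0.16. Of their calls 71.6%, 66.8%, 69.9% and 75.6% were lower, with the scaling of the report. The AK median lay below that of the ENSMUST probes and the others between it and that of the NM_ probes. These are descriptions over tested probes, with no test between classes, and median scaling adds 0.24 to each, which turns the medians of the genomic interval, NR_, XR_ and XM_ probes above 0.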
